A study of Mus musculus with 9 samples.

Results

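The 10 genes described here are Sox transcription factors of the mouse cerebral cortex: Sox7, Sox17 and Sox18 of the SoxF subgroup, and Sox2, Sox4, Sox5, Sox8, Sox9, Sox10 and Sox11, which are known from glia, neural progenitors and neurons. They were taken by symbol from 32531 gene rows and read in all 9 libraries of the series. The libraries are TRAP-seq of untreated adult mice that carry the Abcb1a-EGFP/Rpl10a transgene, line ES3026. TRAP, translating ribosome affinity purification, tags a ribosomal protein with green fluorescent protein and pulls tagged ribosomes down with the RNA on them. Every group carries the transgene. The ES IP group holds 3 libraries of immunopurified ribosome-bound RNA extracted by an investigator with the initials ES. The JL IP group holds 3 such libraries extracted by JL, and the JL input group holds 3 libraries of total RNA, also by JL. The tag marks the cells in which regulatory sequence of Abcb1a, an efflux pump gene of brain endothelium, is active in this single line, and the labels do not tie libraries to single animals. The p-values below therefore measure the spread between these libraries. How much of that spread is technical is not known, and the JL replicates also differ in sex, as given below.

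Sox proteins bind the minor groove of DNA through an HMG box, bend it, and act with partner factors that differ between subgroups. SoxF factors are known for arterial and lymphatic specification, VEGF and Notch signalling and the endothelial junction. Among the SoxE factors, Sox9 is known from astrocytes and Sox8 and Sox10 from the oligodendrocyte lineage. Sox2 keeps neural progenitors and is found in astrocytes, Sox4 and Sox11 are SoxC factors of differentiating neurons, and Sox5 is a SoxD factor of deep-layer projection neurons.

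The coding bases at the start of the HMG box show how alike the members of a subgroup are, which bears on whether reads can be assigned to a single gene. Each window holds 90 bases of GENCODE M21 transcript, 5′ to 3′ on the gene's strand (mm10), and capitals mark positions at which the members of the subgroup differ. The SoxF windows differ at 24 positions over the 3 members, and those of Sox17 and Sox18 are shown. They lie in exon 4 of Sox17 (chr1:4493110-4493199, minus strand) and exon 1 of Sox18 (chr2:181671192-181671281, minus strand).
Sox17: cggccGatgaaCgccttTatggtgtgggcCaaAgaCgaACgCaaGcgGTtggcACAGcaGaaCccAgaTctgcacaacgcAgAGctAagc
Sox18: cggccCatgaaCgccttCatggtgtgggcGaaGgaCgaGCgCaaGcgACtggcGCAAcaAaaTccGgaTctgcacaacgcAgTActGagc

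The SoxC windows, shown because these 2 genes moved in opposite directions, differ at 6 positions and lie in exon 1 of Sox4 (chr13:28952752-28952841, minus strand) and exon 1 of Sox11 (chr12:27342169-27342258, minus strand).
Sox4: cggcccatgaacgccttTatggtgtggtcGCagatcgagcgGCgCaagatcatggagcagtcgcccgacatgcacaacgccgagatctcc
Sox11: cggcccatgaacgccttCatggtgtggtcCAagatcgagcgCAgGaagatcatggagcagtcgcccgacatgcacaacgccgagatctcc

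The SoxE windows, shown because Sox9 differed from Sox8 and Sox10, differ at 16 positions and lie in exon 1 of Sox8 (chr17:25570133-25570222, minus strand), exon 1 of Sox9 (chr11:112782903-112782992, plus strand) and exon 3 of Sox10 (chr15:79163312-79163401, minus strand).
Sox8: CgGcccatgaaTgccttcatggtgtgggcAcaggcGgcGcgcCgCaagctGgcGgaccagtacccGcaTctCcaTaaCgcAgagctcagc
Sox9: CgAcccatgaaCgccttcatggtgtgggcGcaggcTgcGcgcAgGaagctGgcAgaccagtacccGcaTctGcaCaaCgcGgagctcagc
Sox10: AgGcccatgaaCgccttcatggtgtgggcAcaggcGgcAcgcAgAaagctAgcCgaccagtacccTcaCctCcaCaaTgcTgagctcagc

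Identity over the window was 80.0 to 83.3% between SoxF members, 85.6 to 88.9% between SoxE members and 93.3% between Sox4 and Sox11. Between members of different subgroups it was 58.9 to 80.0%. The longest run of identical bases between the transcripts of any of the 45 pairs of listed genes was 48 bases, between Sox4 and Sox11. Between SoxF members the longest was 29 bases. Runs of 30 bases were shared across subgroups, by Sox7 and Sox8 and by Sox2 and Sox10. The read length is not given in the sources used here. Antisense transcripts in the annotation cover 54.6% of the exon bases of Sox4 (Gm26735), 16.9% of Sox17 (Gm37587), 10.6% of Sox8 (2810468N07Rik) and 9.25% of Sox5 (Sox5os1). The strand setting of the counting is not given, so reads of these genes and their antisense partners cannot be told apart. In the files 2810468N07Rik is the only partner of these 4 with a row of its own.

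The libraries held 31987470 to 46598478 gene counts, at which 3 counts correspond to 0.0644 to 0.0938 CPM, the counts of a gene scaled to a common library total. Levels below are CPM with TMM scaling over all 9 libraries, and levels compared between genes are CPM per kb of exon. The label of all 9 libraries names endothelial cells. The marker lists used here were chosen with earlier results of these data known. For the 15 endothelial markers the summed CPM was 6370 to 6711 (JL IPs), 674 to 1020 (ES IPs) and 31.0 to 38.6 (inputs). For the 12 neuronal markers it was, in the same order of groups, 2187 to 2945, 17965 to 19864 and 17207 to 17999. In the inputs and the ES IPs the neuronal sum was thus far above the endothelial one, in the JL IPs below it, and the neuronal ranges of the ES IPs and the inputs overlapped. The ES libraries all ran in lane 6, while replicates 1, 2 and 3 of JL ran in lanes 4, 2 and 3, IP and input of a number together. Investigator and lane cannot be told apart in any comparison with the ES IPs. Counts of the Y-linked gene Ddx3y were 660 to 1037 in the ES IPs, 2298 and 3249 in JL IP and input replicate 1, and 0 or 1 in the other 4 JL libraries. Counts of Xist, the RNA of the inactive X chromosome, were 51 and 1 in JL IP and input replicate 1. In replicates 2 and 3 they were 196 and 177 in the JL IPs and 986 and 1156 in the inputs, and in the ES IPs 35 to 181. Sex thus differed between the JL replicates, and the ES and JL groups are not matched for it.

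The SoxF genes showed the largest differences between ribosome-bound and input RNA: all 3 were 131- to 434-fold higher in JL IP than in JL input, while 6 of the 7 glial and neuronal Sox genes fell and Sox4 rose 2.20-fold. Of the 10 genes, 4 were higher and 6 lower at an adjusted p under 0.05, edgeR's quasi-likelihood test with Benjamini-Hochberg adjustment over 17357 genes. The same test called 36.7% of all genes higher and 37.4% lower, so a call by itself sets no gene apart, and the sizes carry the description. All 10 genes passed the filter on low counts in every comparison. In bulk libraries, fewer cells of a type and less RNA per cell cannot be told apart. JL IP against input also sets ribosome-bound RNA of a pulldown against total RNA, so cell type and ribosome binding cannot be told apart either.

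Sox18, a factor of endothelial and lymphatic development (chr2:181669836-181671640, minus strand, mm10), measured 704, 635 and 698 CPM in the 3 JL IPs, 88.8, 73.9 and 74.6 CPM in the ES IPs, and 1.79, 1.56 and 1.33 CPM in the inputs, on 61 to 91 counts per library. The 3 groups did not overlap, with the JL IPs highest and the inputs lowest. JL IP exceeded input by 8.76 ± 0.13 on the log2 scale (± SE, n = 3 and 3, adjusted p = 1.23e-09, edgeR), 434-fold, and 22 of 17357 tested genes had a larger value. ES IP exceeded input by 5.66 ± 0.17 (adjusted p = 1.32e-06, edgeR), and ES IP against JL IP was -3.02 ± 0.17 (adjusted p = 6.98e-07, edgeR).

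Sox17, which acts with Notch and Wnt signals in arteries and the brain barrier (chr1:4490931-4497354, minus strand), measured 176, 167 and 168 CPM in the JL IPs, 29.8, 28.4 and 24.0 CPM in the ES IPs and 0.706, 0.579 and 0.326 CPM in the inputs. The groups were again apart, and the inputs rest on only 15 to 36 counts per library. JL IP exceeded input by 8.29 ± 0.18 (adjusted p = 3.17e-09, edgeR), 312-fold. ES IP exceeded input by 5.66 ± 0.26 (adjusted p = 4.54e-06, edgeR), close to the value of Sox18.

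Sox7, a further SoxF regulator of vessel formation (chr14:63943673-63950732, plus strand), measured 292, 249 and 230 CPM in the JL IPs, 32.7, 22.7 and 26.7 CPM in the ES IPs and 1.76 to 2.12 CPM in the inputs, on 88 to 108 counts per library. It had the smallest SoxF difference in both comparisons with input. JL IP exceeded input by 7.04 ± 0.14 (adjusted p = 2.43e-09, edgeR), 131-fold, and ES IP exceeded input by 3.80 ± 0.18 (adjusted p = 5.86e-06, edgeR). The 15 endothelial markers beside them, a list chosen with earlier results of these data known, all rose from JL input to JL IP. The rise was 6.12 to 9.49 with a median of 7.84, against a median of -0.09 over all tested genes. The SoxF values thus lie inside the range of these markers.

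**Figure D1:**
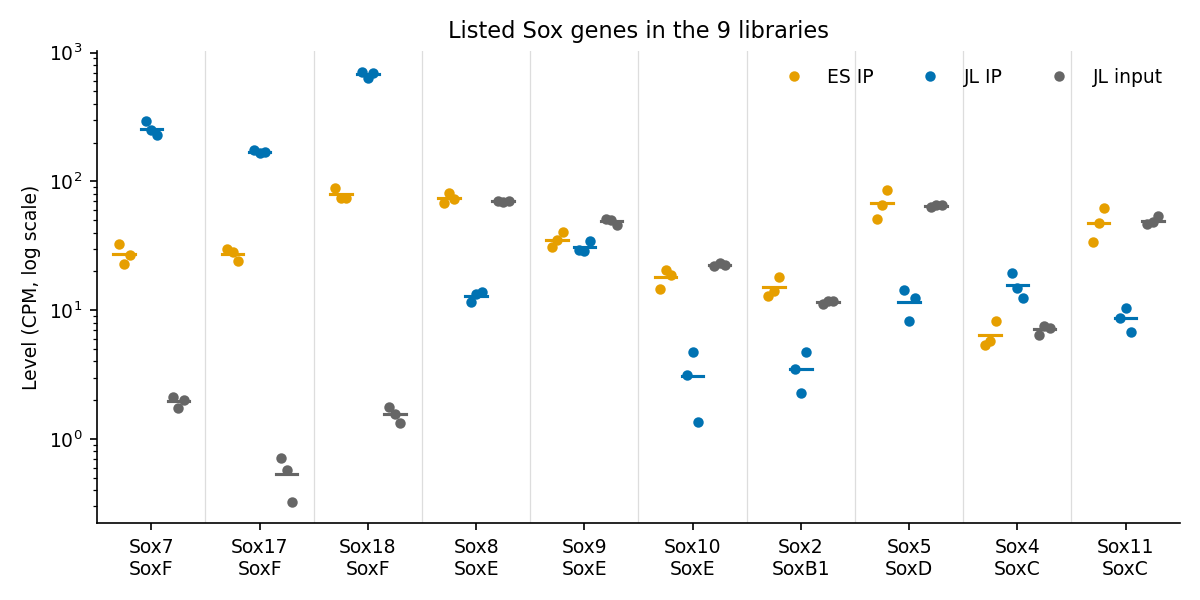
Level in CPM (log axis) of the 10 listed Sox genes in each of the 9 libraries, coloured by group, with a bar at each group's mean. The SoxF genes at the left are highest in the JL IPs, intermediate in the ES IPs and at 0.326 to 2.12 CPM in the inputs, while Sox8, Sox10, Sox2, Sox5 and Sox11 are lowest in the JL IPs.

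Sox8 (chr17:25565892-25570686, minus strand), a SoxE factor of the oligodendrocyte lineage, measured 11.6, 13.3 and 13.9 CPM in the JL IPs, 70.1, 69.5 and 69.8 CPM in the inputs and 67.7, 80.7 and 72.8 CPM in the ES IPs. The JL IPs stood below both other groups, whose values overlapped. JL IP was -2.43 ± 0.10 against input (adjusted p = 7.66e-08, edgeR), and ES IP exceeded JL IP by 2.59 ± 0.18 (adjusted p = 1.20e-06, edgeR).

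Sox10 (chr15:79154908-79165240, minus strand), which drives myelin genes, measured 3.15, 4.76 and 1.35 CPM in the JL IPs, 22.2, 23.2 and 22.4 CPM in the inputs and 14.7, 20.4 and 18.7 CPM in the ES IPs. Every ES IP was below every input and above every JL IP. JL IP was -2.86 ± 0.37 against input (adjusted p = 0.000118, edgeR), the largest drop among the listed genes and the one with the largest standard error. JL IP replicate 3, the lowest, held 40 counts.

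Sox9 (chr11:112782224-112787760, plus strand), a factor of astrocytes and gliogenesis, measured 29.4, 28.8 and 34.7 CPM in the JL IPs, 50.9, 50.2 and 46.0 CPM in the inputs and 31.0, 34.8 and 40.2 CPM in the ES IPs. Its JL IP values overlapped those of the ES IPs and lay below the inputs. It fell by 0.66 ± 0.10 from JL input to JL IP (adjusted p = 0.000409, edgeR), a smaller drop than those of the other 5 genes that fell. The 12 astrocyte markers split into 10 lower and 2 higher (median -1.87), and each of the 10 fell further than Sox9. The oligodendrocyte markers, 11 lower and 1 higher of 12 (0 higher with upper quartile scaling or library size alone), had a median of -2.57, near the values of Sox8 and Sox10.

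Sox2 (chr3:34650405-34652461, plus strand, inside the noncoding gene Sox2ot but sharing no exon bases with it) measured 3.49, 2.29 and 4.72 CPM in the JL IPs, 11.2, 11.9 and 11.9 CPM in the inputs and 12.8, 14.2 and 18.2 CPM in the ES IPs. The groups did not overlap, and the ES IPs were highest. JL IP was -1.74 ± 0.26 against input (adjusted p = 0.000341, edgeR), and ES IP exceeded JL IP by 2.19 ± 0.31 (adjusted p = 0.000109, edgeR).

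Sox4 and Sox11, the SoxC pair, went opposite ways. Sox4 (chr13:28948919-28953713, minus strand) measured 19.3, 15.0 and 12.5 CPM in the JL IPs, 6.48, 7.54 and 7.24 CPM in the inputs and 5.35, 5.73 and 8.27 CPM in the ES IPs. Its JL IPs lay above the other libraries, and the inputs and ES IPs overlapped. JL IP exceeded input by 1.14 ± 0.19 (adjusted p = 0.000695, edgeR), and ES IP was -1.19 ± 0.27 against JL IP (adjusted p = 0.00283, edgeR). The antisense partner over 54.6% of its exon bases has no row, and its part in these counts was not tested.

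Sox11 (chr12:27334264-27342574, minus strand) measured 8.76, 10.3 and 6.81 CPM in the JL IPs, 46.3, 48.7 and 53.6 CPM in the inputs and 33.8, 47.2 and 61.7 CPM in the ES IPs. The JL IPs were lowest, and the ES IPs spread across the range of the inputs. JL IP was -2.52 ± 0.16 against input (adjusted p = 1.36e-06, edgeR). Sox5 (chr6:143828425-144781977, minus strand), the SoxD member, measured 14.3, 8.27 and 12.4 CPM in the JL IPs, 63.6, 65.1 and 65.8 CPM in the inputs and 50.6, 65.8 and 85.7 CPM in the ES IPs. It had the same layout as Sox11, with JL IP at -2.48 ± 0.18 against input (adjusted p = 3.36e-06, edgeR). The 12 neuronal markers all fell in that comparison, with a median of -2.59.

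**Figure D2:**
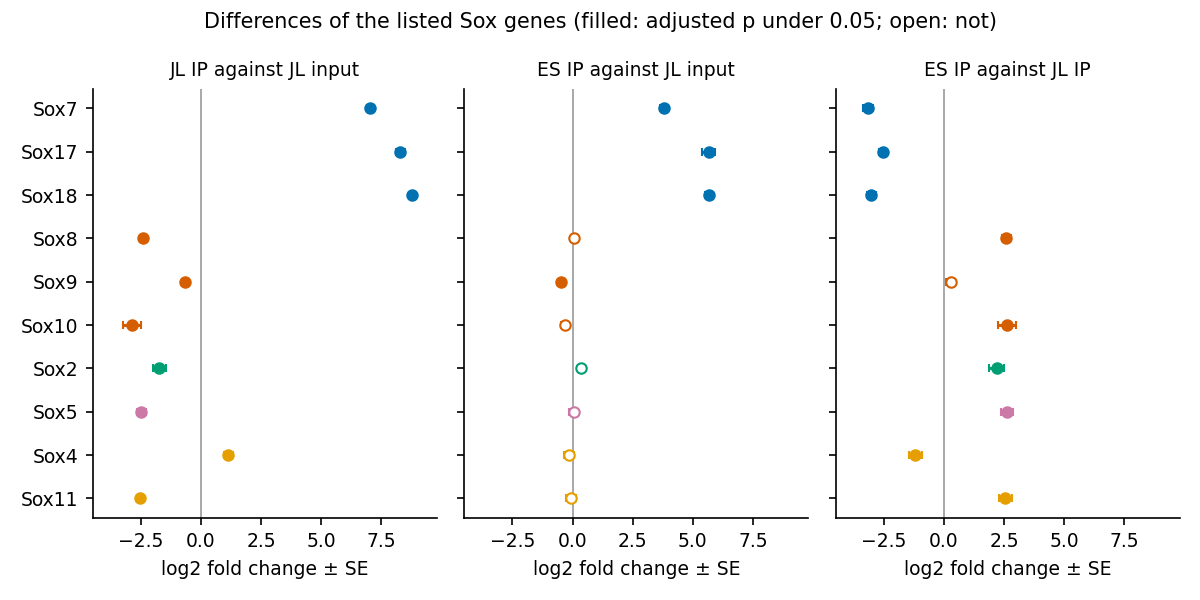
Log2 fold change with its standard error for the 10 listed Sox genes in the 3 comparisons, filled where the adjusted p was under 0.05 and open where it was not, coloured by subgroup. The SoxF genes are at 7.04 to 8.76 for JL IP against input and 3.80 to 5.66 for ES IP against input, where 6 of the other 7 genes are open symbols near 0.

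The 3 JL lanes each gave the same sign for every listed gene between IP and input. The within-lane log2 ratio of CPM ran from 6.85 to 7.15 for Sox7, 7.96 to 9.01 for Sox17 and 8.62 to 9.04 for Sox18. For Sox4 it ran from 0.79 to 1.57, for Sox9 from -0.80 to -0.41, for Sox2 from -2.38 to -1.33, for Sox8 from -2.59 to -2.33, for Sox5 from -2.98 to -2.15, for Sox11 from -2.97 to -2.24 and for Sox10 from -4.05 to -2.29.

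**Figure D3:**
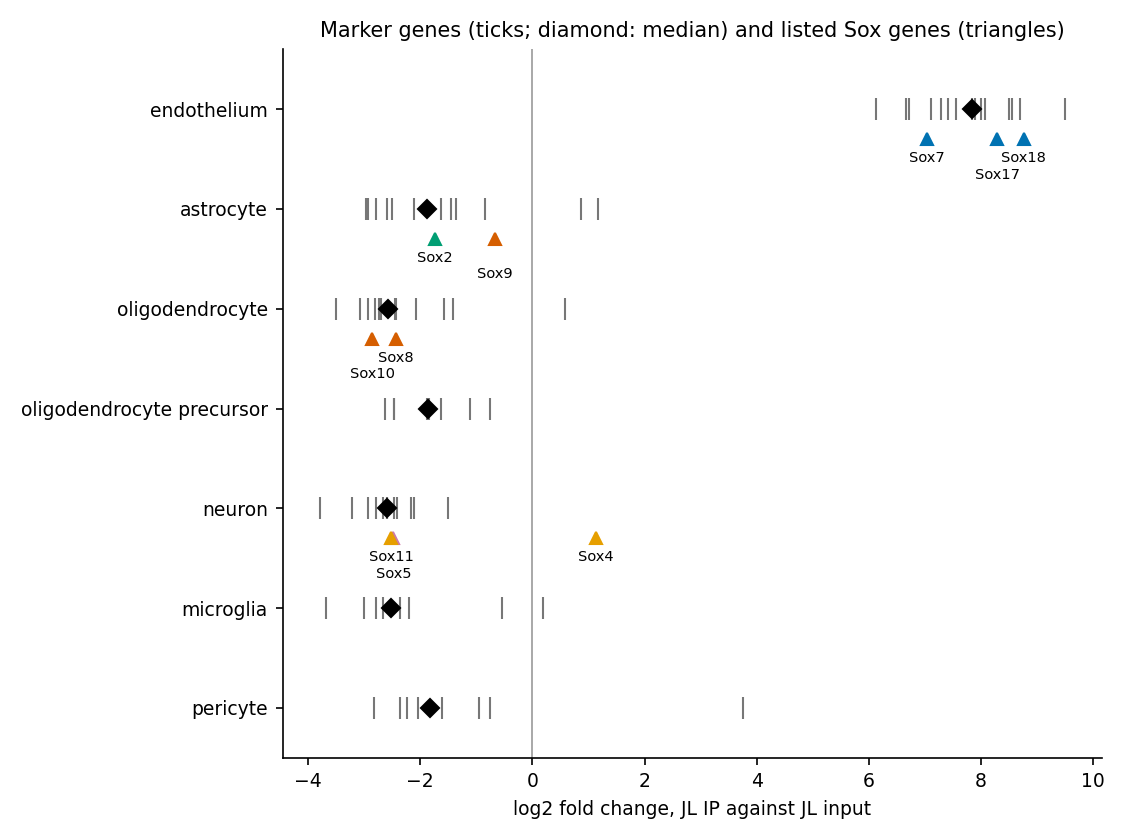
Log2 fold change of JL IP against JL input for the genes of 7 marker lists (ticks, with a diamond at the median) and for the listed Sox genes (triangles), each drawn below the cell type it is known from. The SoxF genes lie inside the endothelial range of 6.12 to 9.49, while Sox9 and Sox4 lie to the right of most markers of the row above them.

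The ES IPs against the JL IPs ask how far the same pulldown differed between the 2 extractions. The SoxF genes and Sox4 were lower in the ES IPs, and Sox2, Sox5, Sox8, Sox10 and Sox11 were higher, 4 lower and 5 higher of 10 where the test called 28.2% of 16212 genes lower and 29.7% higher. The value was -3.15 ± 0.20 for Sox7 and -2.55 ± 0.16 for Sox17 (adjusted p = 7.79e-07 and 8.80e-07, edgeR), the latter the smallest drop of the SoxF genes. The rise was 2.54 ± 0.27 for Sox11, 2.62 ± 0.27 for Sox5 and 2.62 ± 0.39 for Sox10 (adjusted p = 1.32e-05, 1.08e-05 and 0.000172, edgeR). Sox9 did not pass, at 0.27 ± 0.18 with a 95% interval of -0.09 to 0.64 (adjusted p = 0.225, edgeR). Beside these, all 15 endothelial markers were lower (median -3.00) and all 12 neuronal markers higher (median 2.73), so the SoxF genes, Sox5 and Sox11 had the direction of the markers of the cells they are known from, and Sox4 had the direction opposite to the neuronal markers. The part of cell make-up in these differences was not tested.

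Set against the JL inputs, which are not the inputs of those extractions, the ES IPs had the 3 SoxF genes higher and Sox9 lower, where the test called 26.9% of 17477 genes higher and 25.3% lower. Sox9 was at -0.47 ± 0.13 (adjusted p = 0.0164, edgeR), a call that was lost without JL input replicate 1 (adjusted p = 0.0652) or replicate 2 (adjusted p = 0.0701). The other 6 genes did not pass. Their 95% intervals were 0.05 to 0.69 for Sox2, -0.62 to -0.04 for Sox10, -0.53 to 0.26 for Sox4, -0.46 to 0.35 for Sox11, -0.31 to 0.42 for Sox5 and -0.14 to 0.30 for Sox8. The adjusted p was 0.0846 for Sox2 and 0.0911 for Sox10, which passed in 1 and 3 of 13 alternative settings. The 3 comparisons share libraries and are not independent of each other.

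Per kb of exon, the order of the genes differed between the groups. In the JL IPs Sox18 led with 419 ± 23.6 CPM per kb (mean ± SD, n = 3), followed by Sox7 at 78.0 ± 9.65, Sox17 at 35.7 ± 1.04 and Sox9 at 7.48 ± 0.785, and none of these 4 overlapped its neighbour. Sox8 at 4.16 ± 0.377 and Sox4 at 3.25 ± 0.717 CPM per kb overlapped, as did Sox2, Sox11, Sox10 and Sox5 in sequence, at 1.70 down to 0.810 CPM per kb. The leading glial Sox gene of the JL IPs was therefore Sox9.

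In the inputs the SoxF genes closed the order, at 0.961 ± 0.142 CPM per kb for Sox18, 0.594 ± 0.0562 for Sox7 and 0.113 ± 0.0405 for Sox17, and Sox8 led at 22.4 ± 0.102, ahead of Sox9 at 11.9 ± 0.651 and Sox10 at 7.40 ± 0.175. Of the neighbours in that order, only Sox11 (5.96 ± 0.442) and Sox2 (5.66 ± 0.187) overlapped. Sox5 stood at 4.51 ± 0.0801 and Sox4 at 1.48 ± 0.115 CPM per kb. In the ES IPs Sox18 led at 48.8 ± 5.17 and Sox8 was next at 23.7 ± 2.10 CPM per kb. The 7 genes from Sox9 (8.55 ± 1.11) to Sox5 (4.69 ± 1.22) each overlapped the next, and Sox4 was last at 1.34 ± 0.331 CPM per kb. Sox5 has many transcripts, and with the length of its longest transcript it stood at 9.30 CPM per kb in the ES IPs and 8.95 in the inputs, the third of the order in both, and in the inputs ahead of Sox10 at 8.12.

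Summed per kb over the 10 genes, the SoxF share was 96.5 ± 0.122% in the JL IPs, 52.4 ± 5.91% in the ES IPs and 2.74 ± 0.338% in the inputs (mean ± SD, n = 3). The SoxE share was 2.30 ± 0.219%, 31.7 ± 3.22% and 68.4 ± 0.945%, and in a fixed sum it has to fall where SoxF rises enough. The summed SoxE signal itself was 12.6 ± 0.718, 38.1 ± 3.62 and 41.7 ± 0.702 CPM per kb. That of SoxF was 533 ± 28.9, 62.9 ± 7.02 and 1.67 ± 0.205 CPM per kb. Between the ES IPs and the inputs the SoxE share thus differed far more than the SoxE signal. The 3 groups did not overlap in either share, and the largest spread was within the ES IPs, where the SoxF share ran from 48.4 to 59.2%.

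**Figure D4:**
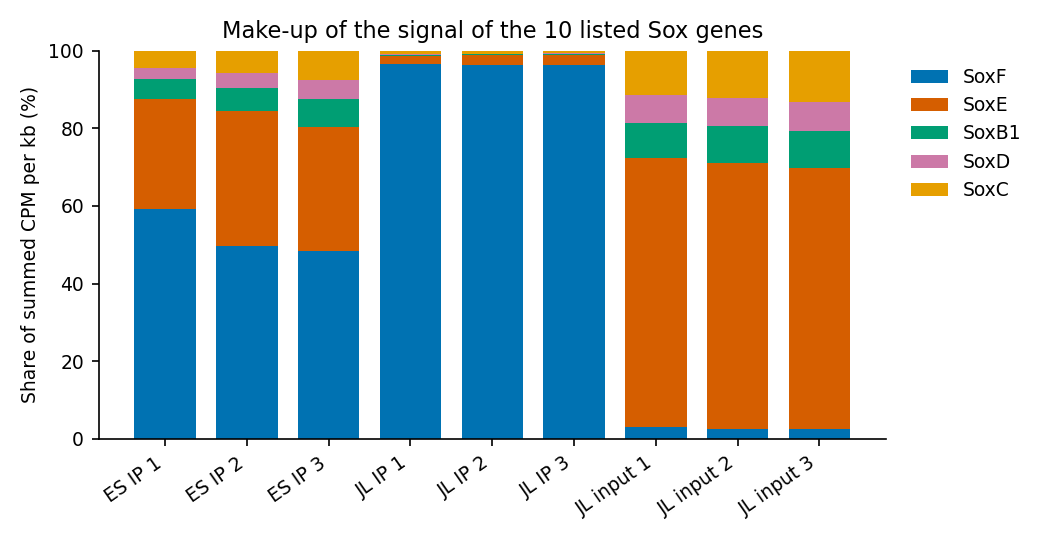
Share of each Sox subgroup in the summed CPM per kb of the 10 listed genes, 1 bar per library. SoxF holds 96.4 to 96.6% in the JL IPs, 48.4 to 59.2% in the ES IPs and 2.46 to 3.11% in the inputs, where SoxE holds 67.4 to 69.2%.

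Within SoxF, Sox18 held 78.7 ± 1.53% of the per-length signal in the JL IPs and 77.7 ± 0.424% in the ES IPs, against 57.5 ± 2.43% in the inputs. Sox7 held 14.6 ± 1.45%, 13.1 ± 1.19% and 35.8 ± 4.15%, so its share was higher in the inputs than in either IP group. Sox17 held 6.71 ± 0.221%, 9.16 ± 0.900% and 6.64 ± 1.79%. Within SoxE, Sox9 held 59.1 ± 4.42% in the JL IPs against 22.5 ± 2.15% in the ES IPs and 28.5 ± 1.10% in the inputs. Within SoxC, Sox4 held 75.6 ± 3.86% in the JL IPs against 19.3 ± 2.11% and 19.9 ± 1.13%.

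Ratios between 2 genes in the same library do not depend on library scaling. They were compared for the 7 pairs within subgroups in the 3 comparisons, 21 two-sided exact permutation tests over libraries. With 3 libraries against 3 the smallest p is 0.1, and the smallest value adjusted over the 21 tests was 0.15, so no ratio could pass. In 14 of the 21 the libraries of the groups did not overlap. How often the ratios of other gene pairs separate in this way was not computed, so this count sets no pair apart. The log2 ratio of CPM of Sox4 to Sox11 was 0.85 ± 0.30 in the JL IPs, -2.87 ± 0.19 in the ES IPs and -2.81 ± 0.10 in the inputs (SD, n = 3, exact p = 0.1 for the JL IPs against either). That of Sox9 to Sox10 was 3.50 ± 1.07, 0.98 ± 0.19 and 1.12 ± 0.08. That of Sox7 to Sox18 was -1.41 ± 0.17 and -1.54 ± 0.14 in the JL and ES IPs, which overlapped, and 0.34 ± 0.22 in the inputs.

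**Figure D5:**
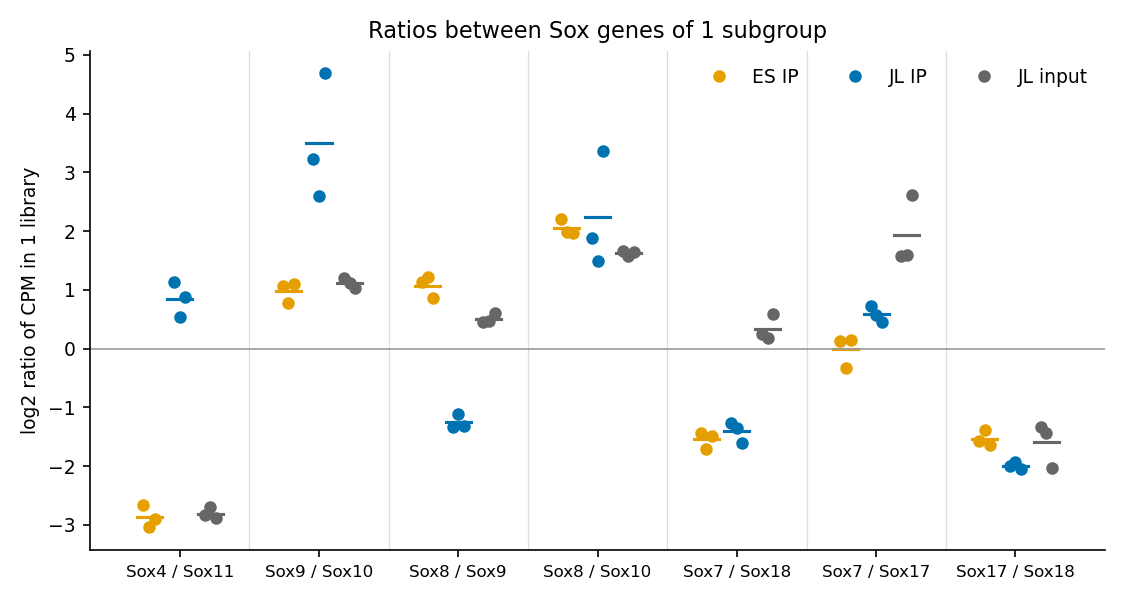
Log2 ratio of the CPM of 2 Sox genes of 1 subgroup in each library, with a bar at each group's mean. The ratio of Sox4 to Sox11 lies between 0.54 and 1.14 in the 3 JL IPs, while the 3 ES IPs lie between -3.04 and -2.66. CPM is not divided by length here, so heights compare groups within a pair, not genes.

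Of the 9 other Sox genes, 5 reached 1 CPM in some group. Sox13, a SoxD factor, measured 268, 256 and 250 CPM in the JL IPs, 51.1, 30.0 and 38.0 CPM in the ES IPs and 4.43, 6.30 and 5.41 CPM in the inputs, the layout of the SoxF genes. JL IP exceeded input by 5.58 ± 0.14 (adjusted p = 4.89e-09, edgeR). Its SoxD relatives went the other way: Sox5 as above, and Sox6 at -2.28 ± 0.19 (adjusted p = 6.31e-06, edgeR), from 44.9 ± 3.01 CPM in the inputs to 9.24 ± 2.43 CPM in the JL IPs. The SoxB genes Sox1 and Sox21, known from neural progenitors, also fell, by 2.63 ± 0.17 and 1.72 ± 0.22 on the log2 scale (adjusted p = 1.40e-06 and 0.000114, edgeR). Sox12, the remaining SoxC gene, was called higher at 0.44 ± 0.16 (adjusted p = 0.033, edgeR), with overlapping groups, and lost this call in 7 of 13 alternative settings (adjusted p up to 0.338), among them without JL IP replicate 2 or 3 or input replicate 1 or 3. Of these 9 genes 2 were higher, 3 lower, 2 did not pass and 2 were not tested.

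Genes reported as partners, regulators or targets of the SoxF factors numbered 24, of which 23 were tested. From JL input to JL IP 21 were higher and 2 lower, with a median of 5.65 against -0.09 over all tested genes. The test called 36.7% of all genes higher and 37.4% lower there. The largest differences were those of Cldn5, a tight junction claudin, at 9.49 ± 0.24, Robo4, an endothelial Roundabout receptor, at 8.70 ± 0.14, and Gja5, an arterial connexin, at 8.49 ± 0.31 (adjusted p = 6.29e-09, 1.51e-09 and 4.06e-08, edgeR). The 2 lower genes were Mef2c, a partner of Sox18 that neurons also use, at -1.70 ± 0.06, and Prox1, the lymphatic target of Sox18 that is also a neuronal gene, at -2.32 ± 0.14 (adjusted p = 3.87e-08 and 1.06e-06, edgeR). In the ES IPs against the JL IPs 2 of the 23 were higher and 18 lower, with a median of -2.42. The count of higher genes was 1 without ES IP replicate 2 or 3 or JL IP replicate 3. Shares over all genes were 29.7% higher and 28.2% lower in that comparison. Against the inputs 20 were higher and 2 lower in the ES IPs, and 1 was lower when any 1 input library was left out. There 26.9% of all genes were called higher and 25.3% lower. Mmp7 had no count in any library.

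Of 16 partners and reported targets of Sox10 and Sox8, 15 were lower and none higher in JL IP than in input, with a median of -2.12. The test called 37.4% of all genes lower and 36.7% higher there. Among the largest drops were those of Zfp488, an oligodendrocyte zinc finger factor, at -3.32 ± 0.33, and the myelin gene Mbp at -2.81 ± 0.29 (adjusted p = 2.21e-05 and 3.15e-05, edgeR). In the ES IPs 11 of the 16 were higher than in the JL IPs, with none lower. There 29.7% of all genes were called higher and 28.2% lower. Against the inputs 13 were lower in the ES IPs (9 to 13 over the alternative settings), where 25.3% of all genes were called lower. Sox8 and Sox10 themselves did not pass in that last comparison.

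Of 17 partners and reported targets of Sox9 and Sox2, 5 were higher and 10 lower in JL IP than in input, with a median of -1.72. Of all tested genes 36.7% were called higher and 37.4% lower there, so the higher ones are no larger a part of this list than of all genes. The 5 were the intermediate filament genes Vim (6.29 ± 0.11) and Nes (5.51 ± 0.22), the receptor gene Notch1 (2.73 ± 0.13) and the nuclear factor I genes Nfia (1.46 ± 0.09) and Nfib (0.83 ± 0.07). Their adjusted p, by edgeR, ran up to 1.09e-05. Vim, Nes and Notch1 are also known from endothelium, and Notch1 is on the SoxF list too. The POU factor Pou3f2 had the largest drop, at -3.11 ± 0.19 (adjusted p = 1.13e-06, edgeR). In the ES IPs 11 were higher and 5 lower than in the JL IPs, where 29.7% and 28.2% of all genes were called. Against the inputs 5 were higher and 7 lower in the ES IPs (4 lower with all 9 libraries in 1 fit), where 26.9% and 25.3% of all genes were called. The 5 lower and the 5 higher are close to those shares.

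Of 16 partners and reported targets of the SoxC and SoxD factors, 3 were higher and 12 lower in JL IP than in input, with a median of -2.27. Of all tested genes 36.7% were called higher and 37.4% lower there. The 3 were Tead2, a reported SoxC target, at 5.08 ± 0.20, Ctgf, a secreted matrix-associated protein, at 2.76 ± 0.14, and Plxnd1, a semaphorin receptor of vessels and neurons, at 1.71 ± 0.11 (adjusted p = 6.97e-08, 3.41e-07 and 1.65e-06, edgeR). The neuronal microtubule genes Map2 and Dcx fell by 3.79 ± 0.18 and 3.26 ± 0.33 on the log2 scale (adjusted p = 2.31e-07 and 2.78e-05, edgeR). In the ES IPs 11 were higher and 3 lower than in the JL IPs, and 3 were higher and 4 lower than in the inputs (5 higher without ES IP replicate 1), shares at or below the 26.9% and 25.3% of all genes.

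The marker lists of the cell types that the tissue holds are given beside these genes. The most abundant endothelial markers were Ptprb at 1468 ± 137 CPM and Flt1 at 798 ± 38.6 CPM in the JL IPs, against 10.6 ± 2.20 and 3.12 ± 0.582 CPM in the inputs. Snap25 and Camk2a, the most abundant neuronal markers, were at 1373 ± 176 and 282 ± 101 CPM in the JL IPs, against 10502 ± 488 and 1705 ± 43.0 CPM in the inputs. The astrocyte genes Slc1a2 and Aldoc were at 206 ± 59.3 and 66.3 ± 19.6 CPM in the JL IPs, against 1567 ± 79.2 and 458 ± 27.4 CPM in the inputs. Which cells the Sox9 RNA of the JL IPs came from was not tested. The summed astrocyte markers came to 420 to 634 CPM in the JL IPs against 2429 to 2610 CPM in the inputs, and those of oligodendrocytes to 406 to 581 against 2488 to 2889 CPM. No marker with a row was at 0 in a whole group.

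The remaining lists covered cells of the vessel wall and others, as counts of higher and lower genes in JL IP against input. Of all tested genes 36.7% were called higher and 37.4% lower there. Genes in brackets were chosen by abundance, not by direction. Oligodendrocyte precursor genes were 0 higher and 6 lower of 8 (Ptprz1 -2.47, Tnr -2.46), and microglial genes 0 and 7 of 8 (P2ry12 -2.67). Pericyte genes were 1 and 5 of 8 (Anpep 3.76, Rgs5 -2.82), smooth muscle genes 2 and 2 of 7 (Mylk 2.37, Acta2 1.33), and fibroblast genes 4 and 3 of 7 (Islr 3.66, Dcn 1.28). The named genes of the last 2 lists all rose, while the lists ran from -5.36 to 2.37 (median -0.09) for smooth muscle and from -3.38 to 3.66 (median 1.28) for fibroblasts. Without JL IP replicate 1 or 2, or any 1 input, the count of lower genes was 3 for pericytes and 1 for smooth muscle, and it was also 1 for smooth muscle with the replicate block. Genes of choroid plexus and ependyma were 0 and 7 of 8 (Ttr -3.77, Kl -1.23). Of the 5 lymphatic endothelial markers with a row 3 were higher and 2 lower (Flt4 6.78, Prox1 -2.32), and of 3 red blood cell genes 0 and 2 (Hbb-bs -2.46, and Hba-a2, which did not pass, -1.29).

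The genes most like each listed gene were found among 12608 genes as those with the smallest root mean square difference of centred log2(CPM + 0.5) over the 9 libraries. For Sox18 they were Pecam1 (0.17), the endothelial adhesion molecule, Adgrl4 (0.33) and Foxq1 (0.34). For Sox17 they were the zinc finger factor Gata2 (0.13), the forkhead factor Foxf2 (0.18) and Gimap1 (0.20), and for Sox7 Trim16 (0.18), Stap2 (0.19) and Clic5 (0.22). Sox17 ranked 11 among the genes nearest to Sox18, and Sox7 ranked 77.

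For Sox8 the nearest genes were Mtmr7 (0.10), Faah (0.11) and Hap1 (0.12), for Sox10 Pnma3 (0.20), Gldc (0.26) and Otx1 (0.26), and for Sox9 Fam13b (0.10), Slc30a4 (0.10) and Fads1 (0.10). For Sox2 they were Rasl10b (0.09), Kcnk3 (0.11) and Bag4 (0.11), for Sox5 Ttc9 (0.10), Myrf (0.12) and Fam189a1 (0.13), for Sox11 Neurod1 (0.12) and AK164121 (0.16), and for Sox4 Socs6 (0.12), 2510009E07Rik (0.13) and Heca (0.14). These likenesses cover 9 libraries in 3 groups and mostly carry the group differences.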

How the data were processed

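Alignment used STAR 2.0.0e and mm10, and counting HTSeq, per the submitters' processing notes. Which annotation and strand setting they used is not given in the sources used here. The deposited values are raw counts per gene, 1 file per library. HTSeq's summary rows and the row for unknown genes (at most 3 counts) were left out. Among them, ambiguous reads came to 10.3 to 11.3% of gene, no-feature and ambiguous counts in the inputs. In the IPs they came to 2.04 to 2.54%, and their part in the Sox counts was not tested. Chi-square values between replicate files were 7.00 to 217 per degree of freedom, so none was a repeat of another.

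The test was edgeR 4.0.16 under R 4.3.3 on the deposited counts (filterByExpr, TMM, glmQLFit, glmQLFTest, Benjamini-Hochberg, threshold 0.05), each fit with the 6 libraries compared. The test was checked on simulated data. Standard errors were derived from the log2 fold change and the F statistic, and 95% intervals are 1.96 standard errors. Positions and exon lengths come from GENCODE M21. Alternatives were DESeq2 1.42.0, other scalings, no low-count filter, no Rn45s row (ribosomal RNA precursor, 4.83 to 17.9% of counts), a replicate block, all 9 libraries in 1 fit, longest-transcript lengths, and leaving out each library.

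The members, the 5 lists of Sox relatives, partners and targets and the 12 marker lists were chosen with earlier results of these data known. Of 190 list entries 187 had a row. Named genes are the listed Sox genes, other Sox genes reaching 1 CPM in a group, the 3 largest differences between JL IP and input per non-marker list with members called against their list's direction, the 2 most abundant genes per marker list, and the 3 genes nearest to each listed gene (at least 5 CPM in the highest group). A few items that this rule selects are not reported here.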

Additional observations from a re-analysis of the deposited data

How the results depend on the processing

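Of the 30 fold changes of listed Sox genes, 27 kept their call in all 13 alternative settings and none that was called changed sign. The 3 others all belong to ES IP against JL input, where the count of listed genes called lower was 1, became 2 with upper quartile scaling and 2 with library size alone, and ran from 0 to 2 when each library was left out. There Sox9 did not pass without JL input replicate 1 or 2. Sox10 passed with upper quartile scaling (-0.48, adjusted p = 0.0278), with library size alone (-0.45, adjusted p = 0.0312) and without ES IP replicate 2 (-0.42, adjusted p = 0.0499), and Sox2 without ES IP replicate 1 (0.49, adjusted p = 0.00744), all by edgeR. Sox5, Sox8 and Sox11, which did not pass, changed sign in 3, 2 and 1 settings. Of 45 other named genes, 42 kept their call between JL IP and input, and Sox12 and Hba-a2 were among the 3 that did not. Upper quartile scaling moved the median log2 fold change of all genes by -0.25 for JL IP against input and -0.15 for ES IP against input, and library size alone by -0.26 and -0.11. In ES IP against input the higher genes made up 51.5% of calls, and 40.7% with upper quartile scaling. The replicate block changed no call of a listed gene, and with it JL IP against input had 6124 genes higher and 6307 lower. Same-numbered JL libraries deviated together only weakly (correlations of 0.04 to 0.10), and the main fit did not take the numbers as pairs. However, all 6 correlated best with their own number. IP and input of a number also shared a lane and the sex shown by Ddx3y, so they may be pairs. The fit with the replicate block allows for such pairs. Levels of Sox17 and Sox5 per kb rest on the transcript length used: with the longest transcript Sox17 reached 52.5 and Sox5 1.61 CPM per kb in the JL IPs. Low counts limit the SoxF values in the inputs (15 to 36 counts per library for Sox17, 61 to 91 for Sox18) and Sox10 in the JL IPs (40 to 164).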

Other observations

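The values of 2 Sox genes with group means below 1 CPM, picked out after they were seen, are given by library. Sox14, a SoxB gene of the neural tube and interneurons, had 34 counts in JL IP replicate 1 and none in the other 2 JL IPs, 26 to 38 counts in the inputs and none in the ES IPs. Sox30 measured 1.25 CPM in JL IP replicate 3, 0.116 CPM in replicate 2 and 0 in replicate 1, against 0.120 to 0.261 CPM in the inputs.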
